A study of Homo sapiens with 3 samples.

Results

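The neutrophil-attracting CXC chemokines are small secreted proteins that draw neutrophils out of the blood. They were followed here through 6 genes, CXCL1, CXCL2, CXCL3, CXCL5, CXCL6 and CXCL8 (also called interleukin 8), and through every probe set whose single gene symbol in the platform annotation is one of these, which gave 11 of 41091 probe sets with 1 symbol (54675 in all). CXCL2 and CXCL5 had 3 probe sets each, CXCL8 had 2, and CXCL1, CXCL3 and CXCL6 had 1 each. The genes were chosen by their differences among these same 3 arrays, all 3 pairwise differences included, so their values are given as a description.

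The samples were RNA from SKBR3, an established line of human breast carcinoma with amplified ERBB2, known to lack oestrogen receptor α and to carry GPER1, a membrane receptor for oestrogen. All cells were first kept for 4 h in 10% serum stripped of steroids with charcoal. They then received for 3 h either 0.1% ethanol (vehicle), estradiol at 1 µM, or the peptide ERα17p at 1 µM, whose sequence is taken from oestrogen receptor α. An ethanol share is recorded for the vehicle sample alone, not for estradiol or the peptide. The labels do not name the solvent of the peptide. Each condition had 1 whole-genome Affymetrix array, 3 in all, so no value below has a replicate, an error or a p-value. All comparisons are between 3 single RNA samples of 1 cell line, and nothing in the labels says whether these came from separate cultures.

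The chemokines of this group carry a glutamate-leucine-arginine motif ahead of their first cysteines and act on the receptors CXCR1 and CXCR2, which neutrophils bear in quantity. In epithelial cells they are textbook early targets of NF-kB, the transcription factor that TNF and interleukin 1 switch on, often together with AP-1 and C/EBP factors. Several of their mRNAs hold AU-rich elements that proteins such as ZFP36 use to hasten decay. Breast cancer cells are known to secrete several of them, CXCL8 above all.

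The genes lie in 1 cluster on chromosome 4, and their promoters are shown because the members with wide and with narrow differences share the same κB letters. The table of RefSeq promoters (GRCh38.p14) held all 6. Printed are the 150 bases just before each annotated gene start, 5′ to 3′ on the gene's strand, with κB and AP-1 letters in capitals. For CXCL8 this is chr4:73740419-73740568 (plus strand), for CXCL1 chr4:73869243-73869392 (plus strand), for CXCL2 chr4:74099196-74099345 (minus strand), for CXCL3 chr4:74038690-74038839 (minus strand), for CXCL5 chr4:73998678-73998827 (minus strand) and for CXCL6 chr4:73836528-73836677 (plus strand).
CXCL8: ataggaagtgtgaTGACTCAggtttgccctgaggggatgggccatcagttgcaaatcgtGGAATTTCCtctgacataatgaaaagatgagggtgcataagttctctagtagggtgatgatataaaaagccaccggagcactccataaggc
CXCL1: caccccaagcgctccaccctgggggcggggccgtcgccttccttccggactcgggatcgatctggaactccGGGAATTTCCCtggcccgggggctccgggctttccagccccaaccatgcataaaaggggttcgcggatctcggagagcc
CXCL2: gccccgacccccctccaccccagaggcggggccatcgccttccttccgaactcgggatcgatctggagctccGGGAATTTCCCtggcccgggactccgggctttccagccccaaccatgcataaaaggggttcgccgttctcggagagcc
CXCL3: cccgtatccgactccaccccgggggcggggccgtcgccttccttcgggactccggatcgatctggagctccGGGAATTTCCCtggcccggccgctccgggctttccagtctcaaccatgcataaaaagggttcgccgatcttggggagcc
CXCL5: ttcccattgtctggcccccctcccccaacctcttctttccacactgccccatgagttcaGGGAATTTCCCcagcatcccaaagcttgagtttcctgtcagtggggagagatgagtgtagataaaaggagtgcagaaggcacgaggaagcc
CXCL6: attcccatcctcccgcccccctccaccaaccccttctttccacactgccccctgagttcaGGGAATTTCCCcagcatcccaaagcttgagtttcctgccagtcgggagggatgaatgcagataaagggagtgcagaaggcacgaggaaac

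All 6 windows, searched from 250 bases before the start to 50 after it on both strands, held the letters GGAATTTCC, which sit inside the κB consensus and were picked after the sequences were seen. Counted from the start, these letters began at -91 in CXCL8, -90 in CXCL5, -89 in CXCL6, -78 in CXCL1 and CXCL3 and -77 in CXCL2. Of 35116 promoter windows in the table, 0.461% held them. The full κB consensus of NF-kB, which contains those letters in these genes, was present in 5 of the 6 (5.91% of all windows) and absent in that form from CXCL8. CXCL8 was the 1 member with AP-1 letters (TGANTCA, both strands, from -137 to -131; 7.71% of all windows) and the 1 with TATAAA on the sense strand (from -31 to -26; 7.33%). CXCL1, CXCL2 and CXCL3 hold CATAAA, and CXCL5 and CXCL6 hold GATAAA, as printed above. Both differ from TATAAA at 1 base and were not counted. CXCL2 was the 1 member with the exact C/EBP letters TTGCNNAA, searched on both strands and found from -188 to -181 on the strand opposite to the gene (10.5% of all windows). The letters TTGCAAAT, printed above for CXCL8, differ from that pattern at 1 base and were not counted. These are matches of letters, not measured binding.

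**Figure D1:**
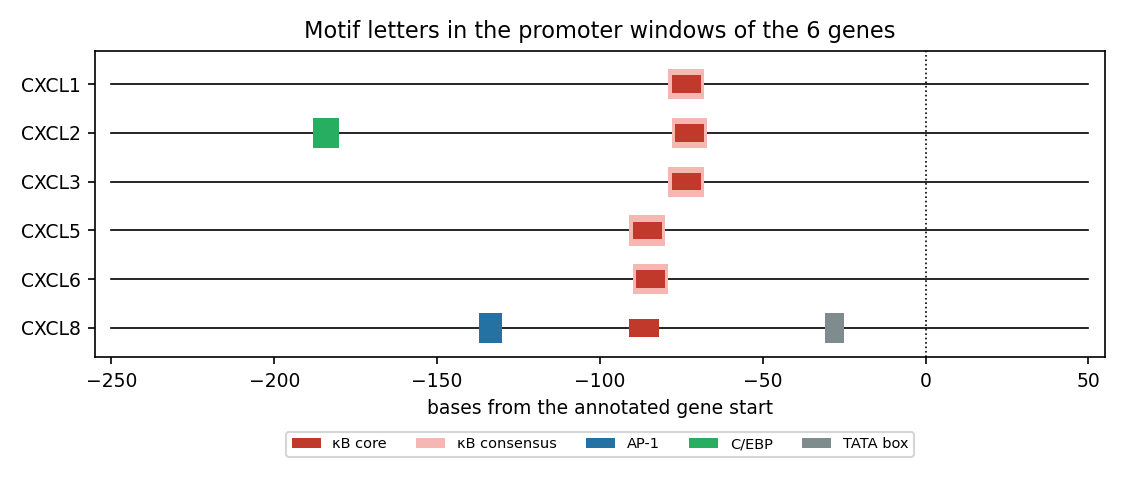
Motif letters in the promoter windows of the 6 genes, by bases from the annotated gene start (dotted line). Red boxes mark the κB core present in all 6 windows and pale boxes the full κB consensus present in 5. Exact matches to the AP-1 and TATAAA letters stand in CXCL8 alone.

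In the 250 bases before the start, the promoters fell into groups by sequence. CXCL5 and CXCL6 were identical at 85.6% of positions after global alignment and CXCL1 and CXCL3 at 84.0%. CXCL2 was identical to CXCL3 at 78.0% and to CXCL1 at 72.4%. CXCL8 matched no other member at more than 48.8%.

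The deposited values are log2 distances from a centre that had been subtracted from each probe set, called the baseline below. Mirror values around 0 in pairs of arrays show that the arrays take part in this centre, so a treated array is held near 0 in part by the centring, and the baseline is no control. Arrays can therefore be compared for 1 probe set, whereas expression levels cannot be read, nor can probe sets be compared in level. The log base was taken as 2. "Lower" and "higher" mean a difference of at least 1.5-fold (0.585 log2 units). The array labelled vehicle differed from the rest, with a standard deviation over all probe sets of 0.27 against 0.12 with estradiol and 0.13 with ERα17p. Its 3′ minus 5′ difference for ACTB, a sign of RNA integrity, was 0.30 against 0.02 and -0.04, and for GAPDH 0.05 against 0.01 and -0.03. Taken from centred values, these differences can be compared only between arrays. The part of the wider spread and of these differences in the results below was not tested. The comparison of the treatments with each other does not involve that array. In RNA from whole cultures, fewer cells that express a gene and less of its RNA per cell cannot be told apart.

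CXCL1, CXCL3, CXCL8 and 1 probe set of CXCL2 lay far lower on both treated arrays than on the array labelled vehicle, with differences of -3.90 to -7.74 log2 units for estradiol and -4.13 to -5.67 for ERα17p. CXCL5, CXCL6 and the other 2 probe sets of CXCL2 differed by less than 1.5-fold in every comparison. Between the treatments, CXCL8 and CXCL1 were lower with estradiol than with ERα17p, and CXCL2 and CXCL3 were within 1.5-fold. By count, 5 of 11 probe sets were lower and 0 higher with estradiol against vehicle, where 3.71% of all probe sets with 1 symbol were lower and 1.38% higher. With ERα17p against vehicle the same 5 of 11 were lower and 0 higher, against a background of 2.76% lower and 0.886% higher. Those 5 were also higher than the baseline, by the same 1.5-fold rule, on the array labelled vehicle, as were 2.88% of named probe sets. Both comparisons share the array labelled vehicle and are not separate evidence.

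**Figure D2:**
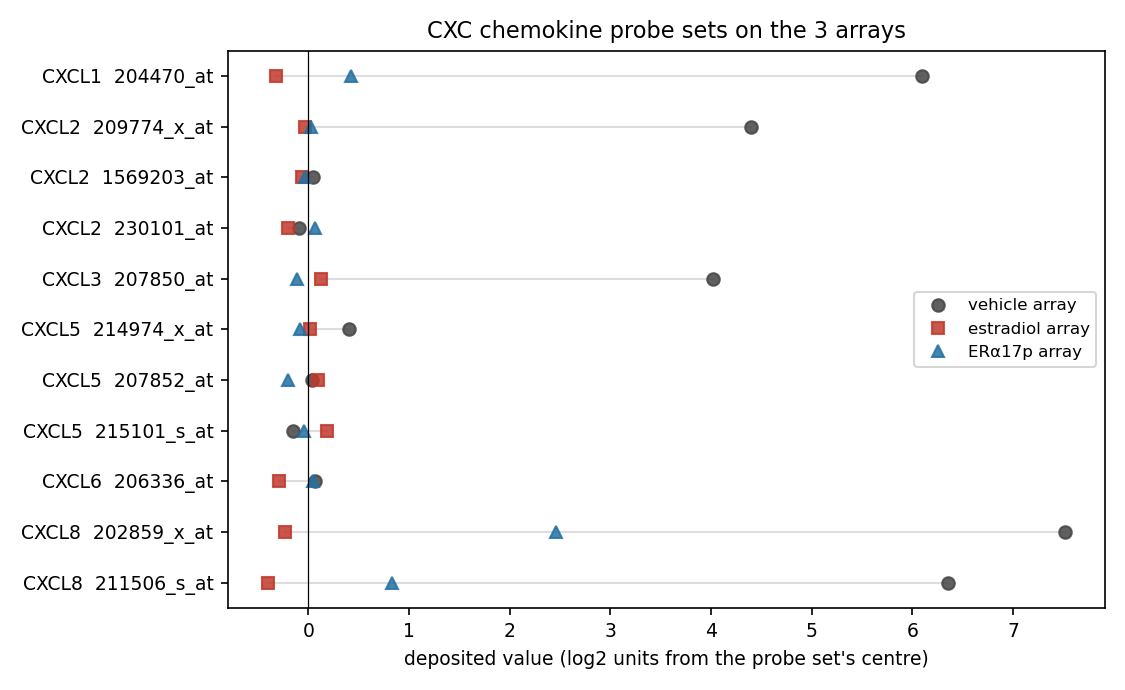
Deposited values (log2 units from each probe set's centre) of the 11 probe sets on the vehicle (circles), estradiol (squares) and ERα17p (triangles) arrays. The 5 probe sets with vehicle values from 4.02 to 7.51 stand apart from the other 6, which lie between -0.29 and 0.41 on every array.

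CXCL8 is the best known neutrophil attractant of the family and binds both CXCR1 and CXCR2. Probe set 202859_x_at read 7.51 with vehicle, -0.23 with estradiol and 2.46 with ERα17p. It had the highest value of all 41091 on the array labelled vehicle and also the highest on the ERα17p array. These are ranks of distances from each probe set's centre, not of expression levels. Probe set 211506_s_at read 6.35, -0.40 and 0.83 in the same order. Both thus ranked the arrays alike, vehicle first, ERα17p second and estradiol last. The estradiol array was lower than the array labelled vehicle by 214-fold in the first probe set and 108-fold in the second, and the ERα17p array by 33.2-fold and 45.7-fold. The probe sets differed from each other by 1.17 on the array labelled vehicle, 1.63 on the ERα17p array and 0.17 on the estradiol array. Each has its own centre, so only the change of this gap between arrays can be read. The order of the 2 treatments held in both, and its size did not. The ending _x_at marks sets with probes that also match other sequences. In 202859_x_at, signal of other sequences therefore cannot be told apart from that of CXCL8.

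CXCL1, first described as a melanoma growth factor, acts mainly on CXCR2. Its probe set, 204470_at, read 6.10 with vehicle, -0.32 with estradiol and 0.43 with ERα17p. It had the fourth highest value of the named probe sets on the array labelled vehicle, again as a distance from its centre. The estradiol array was 85.2-fold lower and the ERα17p array 50.9-fold lower than that array. The order of the arrays was that of CXCL8.

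CXCL3, a close copy of CXCL1 that also acts on CXCR2, read 4.02 with vehicle, 0.12 with estradiol and -0.11 with ERα17p (207850_at). The differences from vehicle were 14.9-fold with estradiol and 17.6-fold with ERα17p. Here the estradiol array lay above the ERα17p array, by 0.24, which is within 1.5-fold.

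CXCL2, another of these near-identical genes, was read by 3 probe sets that disagreed. Probe set 209774_x_at read 4.40 with vehicle, -0.03 with estradiol and 0.03 with ERα17p, lower than vehicle by 21.5-fold and 20.7-fold. Its values on the 2 treated arrays were mirror images around 0. Probe set 1569203_at read 0.05, -0.07 and -0.04 in the same order, and 230101_at read -0.09, -0.20 and 0.06. These 2 differed by at most 0.27 between any pair of arrays. The ending _x_at marks sets with probes that also match other sequences, so the wide difference cannot be told apart from signal of CXCL1 or CXCL3. As a median over its probe sets CXCL2 differed by -0.11 with estradiol and -0.08 with ERα17p from vehicle, and as a mean by -1.55 and -1.43.

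CXCL5 and CXCL6 encode a pair of closely related attractants that act on CXCR2, CXCL6 also on CXCR1. CXCL6 (206336_at) read 0.06 with vehicle, -0.29 with estradiol and 0.05 with ERα17p. For CXCL5, 207852_at read 0.04, 0.10 and -0.20, 214974_x_at read 0.41, 0.02 and -0.08, and 215101_s_at read -0.15, 0.19 and -0.04 in the same order. The 3 probe sets of CXCL5 disagreed in sign for estradiol against vehicle, from -0.39 to 0.34. Their promoters hold the same κB letters as CXCL1, CXCL2 and CXCL3, as printed above. Without levels, a gene that was hardly expressed on all arrays cannot be told apart from one that was expressed and did not differ.

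**Figure D3:**
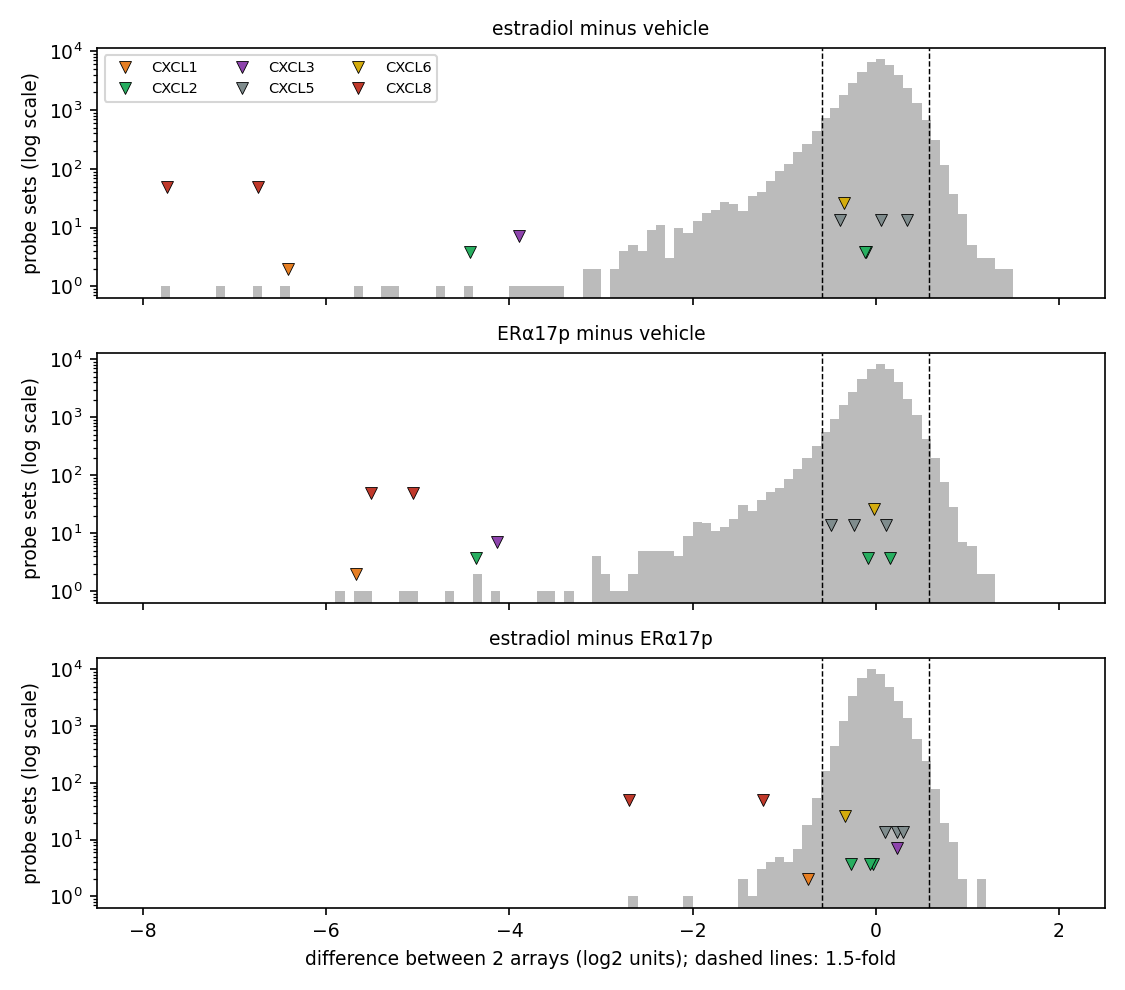
Differences between pairs of arrays (log2 units) for all probe sets with 1 gene symbol (grey, log-scaled counts) and for the 11 probe sets of the members (coloured triangles; their height only separates the genes). Against vehicle, 5 triangles lie at -3.90 or below, far outside the 1.5-fold lines, and between the treatments 3 lie beyond them.

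The direct comparison of estradiol with ERα17p does not use the array labelled vehicle. CXCL8 was 6.45-fold lower with estradiol in 202859_x_at, the widest lower difference of all 41091 probe sets, and 2.35-fold lower in 211506_s_at. The limit given above for the ending _x_at holds for the wider of these. CXCL1 was 1.67-fold lower. These 3 of 11 probe sets were lower and 0 were higher, where 0.29% of all probe sets with 1 symbol were lower and 0.314% higher. The remaining 8 lay between -0.33 (CXCL6) and 0.30 (CXCL5, 207852_at). Against the baseline, both CXCL8 probe sets were higher on the ERα17p array, at 2.46 and 0.83, where 0.0535% of named probe sets were higher, and CXCL1 at 0.43 was not. No member was lower than the baseline there, where 0.0292% were. On the estradiol array no member passed 1.5-fold in either direction from the baseline, where 0.056% of named probe sets were lower and 0.0268% higher.

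The place of the ERα17p array between the other 2 differed among the members. On a scale where the estradiol value is 0% and the vehicle value 100%, in log2 units, CXCL8 lay at 34.7% and 18.3%, CXCL1 at 11.6%, CXCL2 (209774_x_at) at 1.38% and CXCL3 at -6.06%. The 426 probe sets that were at least 2-fold lower with estradiol than on the array labelled vehicle had a median of 14.0% and an interquartile range from 3.26% to 23.7%. So 202859_x_at of CXCL8 lay above that range, CXCL2 and CXCL3 below it, and CXCL1 and the other CXCL8 probe set within it. By definition, an interquartile range leaves out as many probe sets as it holds. A wider range of the same probe sets, with only the outer tails left out, ran from -11.7% to 49.6%. All the member positions listed lay inside this wider range. The 426 include these member probe sets. They also include differences from 2-fold upwards, while these members differed by -3.90 to -7.74 log2 units. Dividing by a narrow difference spreads the positions, so these ranges cannot settle whether a member stood apart.

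Per gene, as a median over its probe sets, 3 of 6 members (CXCL1, CXCL3 and CXCL8) were lower than vehicle with either treatment, where 2.93% of 19775 genes were lower with estradiol and 2.09% with ERα17p. No member gene was higher, where 0.804% and 0.582% of genes were. CXCL8 had the widest lower difference of all genes with estradiol (-7.24), CXCL1 the third (-6.41) and CXCL3 the seventh (-3.90). With ERα17p, CXCL1 was the second (-5.67), CXCL8 the third (-5.28) and CXCL3 the sixth (-4.13). In estradiol against ERα17p, 2 of 6 were lower (0.207% of all genes, with 0.147% higher), CXCL8 as the second widest of all genes (-1.96) and CXCL1 as the sixteenth (-0.74). Against the baseline, 0 of 6 genes were lower under either treatment, a count that the centring in part fixes.

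In chromosomal order the 9 chemokine genes of the cluster run CXCL8, CXCL6, PF4V1, CXCL1, PF4, PPBP, CXCL5, CXCL3, CXCL2 among protein-coding genes of the GRCh38.p14 gene table. Genes high on the array labelled vehicle were interspersed along it with genes near the baseline, and CXCL2, with 1 high probe set of 3, stood next to CXCL3. The 3 platelet chemokine genes in its midst, PF4, PF4V1 and PPBP, had 1 probe set each, with values from -0.23 to 0.00 with vehicle, -0.03 to 0.15 with estradiol and 0.05 to 0.11 with ERα17p. None of them passed 1.5-fold in any comparison. Of the flanking genes, MTHFD2L on the CXCL2 side ran from -0.50 to 0.19 over 8 probe sets for estradiol against vehicle, and RASSF6 on the CXCL8 side from -0.76 to 0.34 over 3.

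**Figure D4:**
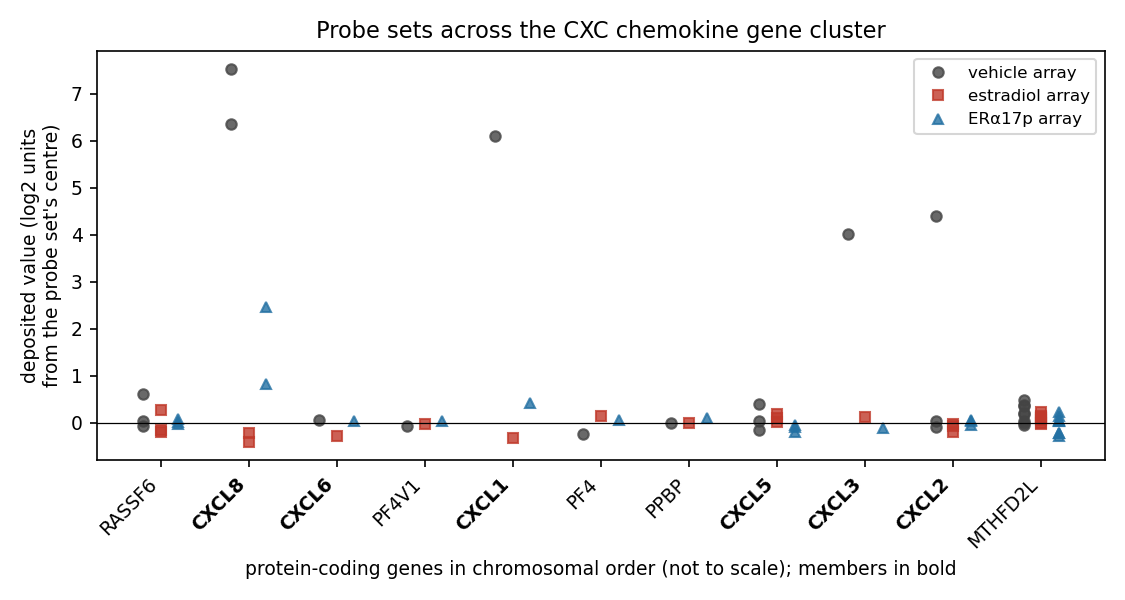
Deposited values (log2 units from each probe set's centre) of every probe set of the chemokine cluster and its flanking genes, in chromosomal order and not to scale, on the vehicle (circles), estradiol (squares) and ERα17p (triangles) arrays. CXCL8, CXCL1, CXCL3 and 1 probe set of CXCL2 reach from 4.02 to 7.51 on the array labelled vehicle, while PF4V1, PF4, PPBP, CXCL6 and CXCL5 between them stay at or below 0.41.

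Genes most like each member were sought by Euclidean distance over the 3 pairwise differences, which come from only 3 arrays. CXCL8 was closest to CCL20, a chemokine gene for dendritic cells and lymphocytes (distance 0.82), then to CXCL1 (1.53) and to SELE, the E-selectin gene (2.13). CXCL1 was closest to SELE (0.954), CCL20 (1.0002) and TNF (1.45). CXCL3 was closest to IRF1, an interferon regulatory factor gene (1.02), PPP1R15A, a stress phosphatase gene (1.52), and TNFAIP3, an NF-kB feedback gene (1.63). No gene lay within 0.1 of these 3 members. For CXCL2, CXCL5 and CXCL6, as medians over probe sets, 1366, 208 and 94 genes lay within 0.1. Their nearest were LINC01300, CCDC18 and CD2BP2 for CXCL2, GRK4, ACTL9 and SPRY2 for CXCL5, and SLC25A21, INTS2 and ZNF595 for CXCL6.

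Among other chemokines, as medians over probe sets, 7 of 20 measured genes were lower with estradiol against vehicle and 6 of 20 with ERα17p. None was higher in either. Of all genes, 2.93% were lower with estradiol and 2.09% with ERα17p. CCL20 read 7.12 with vehicle, -0.06 with estradiol and 1.29 with ERα17p. CXCL10, which attracts T cells, read 2.80, -0.03 and 0.57 in the same order, and CCL2, a monocyte attractant, 2.80, 0.20 and 0.91. CX3CL1, a membrane-bound chemokine, read 2.45, 0.02 and 0.04. In estradiol against ERα17p, 4 of 20 were lower, beside 0.207% of all genes: CCL20 (-1.35), CXCL11 (-0.72, named after its values were seen), CCL2 (-0.71) and CXCL10 (-0.60). CXCL8 and CXCL1 (-1.96 and -0.74) thus had company among chemokines of other target cells, while the median of the 20 was 0.01, near that of all genes (-0.01).

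The receptors of the members did not pass 1.5-fold in any comparison. CXCR1 differed by 0.45 with estradiol and 0.36 with ERα17p from vehicle, CXCR2 by -0.38 and -0.39, and ACKR1, a decoy receptor, by -0.03 and 0.26. Of 19 upstream cytokine and receptor genes, 2 were lower than vehicle with either treatment, TNF (-5.38 with estradiol, -4.65 with ERα17p) and IL6 (-0.69 and -0.62). The genes for interleukin 1 and its receptors were not among them. Of all genes, 2.93% were lower with estradiol and 2.09% with ERα17p. The median of the 19 was -0.08 with estradiol and -0.04 with ERα17p, beside 0.03 for all genes in both. Between the treatments TNF alone of the 19 was lower with estradiol (-0.73), where 0.207% of all genes were.

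Of 21 NF-kB subunits, kinases and feedback genes, 11 were lower and 0 higher than vehicle with either treatment, with medians of -0.78 and -0.59. They were led by TNFAIP3, a deubiquitinase that ends NF-kB signalling (-4.98 with estradiol, -3.99 with ERα17p), NFKBIZ, a nuclear cofactor (-2.21 and -2.30), NFKBIE, an inhibitor of NF-kB (-2.01 and -1.94), and MAP3K8, a kinase upstream of ERK (-1.62 and -1.60). Of 12 AP-1, C/EBP and EGR factors, 8 were lower and 0 higher with either treatment, with medians of -1.40 in both. ATF3 (-2.35 and -2.18), FOS (-2.02 and -2.46), FOSB (-1.85 and -1.88) and JUN (-1.68 and -1.60) led them. Beside both lists, 2.93% of all genes were lower with estradiol and 2.09% with ERα17p. ATF3 was read by 3 probe sets whose differences for estradiol against vehicle spread from -3.57 to 0.04. Among the 11 NF-kB genes, probe sets also disagreed in sign there for NFKBIA (-2.73 to 0.07), NFKB2 (-1.63 to 0.30) and TNFAIP2 (-2.31 to 0.12). These genes were named after their values were seen.

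In estradiol against ERα17p, 1 of the 21 NF-kB genes was lower, TNFAIP3 (-0.98), and 1 of the 12 factors was higher, FOSL1 (0.78, named after its value was seen). Of all genes, 0.207% were lower there and 0.147% higher. Of 8 factors of AU-rich mRNA decay and stability, 2 were lower than vehicle with either treatment, ZFP36 (-2.09 with estradiol, -2.25 with ERα17p) and ZFP36L1 (-0.75 and -0.77). The shares of all genes were 2.93% with estradiol and 2.09% with ERα17p. The 4 probe sets of ZFP36L1 ran from -1.28 to -0.16 with estradiol against vehicle. With ERα17p they disagreed in sign, from -1.31 to 0.27. As medians over probe sets, none of the 8 passed 1.5-fold between the treatments. Against the baseline, with the same limit, 0 of the 83 measured genes in these 6 lists were lower with either treatment, and 5 were higher with ERα17p. Of named probe sets, 0.056% were lower with estradiol, and with ERα17p 0.0292% were lower and 0.0535% higher. These shares are of single probe sets, and those of genes as medians were not counted against the baseline. All these lists were picked with earlier results of these arrays known and are a description.

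**Figure D5:**
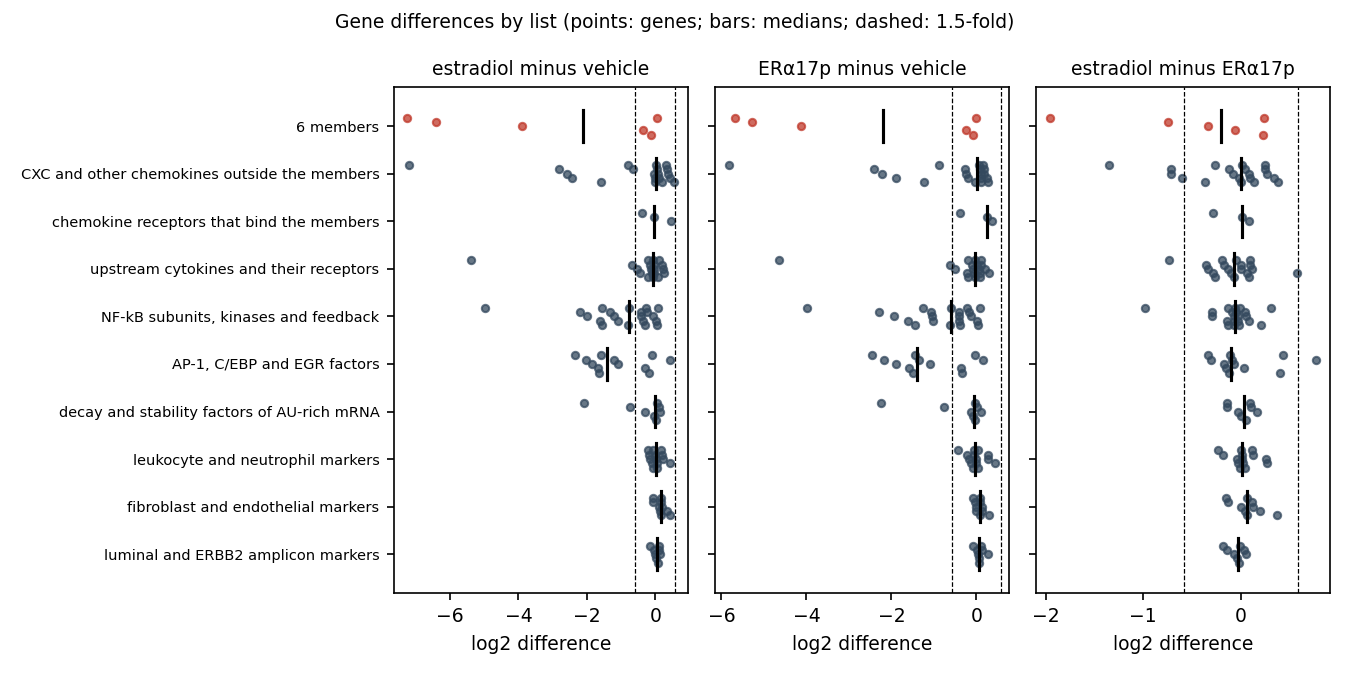
Differences per gene (log2, median over probe sets; points) in the 3 comparisons for the 6 members (red) and 9 gene lists, with a bar at each median and dashed lines at 1.5-fold. Against vehicle, genes past the left line stand among the members and in all lists but the receptors of the members and the 3 marker lists, down to -7.24 for CXCL8, -7.19 for CCL20 and -5.38 for TNF with estradiol.

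As medians over probe sets, no marker of another cell type passed 1.5-fold. For ITGAM, a leukocyte marker, 1 of its 2 probe sets did, at -0.66 with estradiol and -0.76 with ERα17p against vehicle. Of 14 measured leukocyte and neutrophil markers, among them CSF3R, FCGR3B and S100A8, 0 were lower and 0 higher in each comparison, and values ranged from -0.35 to 0.34 with vehicle, -0.13 to 0.16 with estradiol and -0.16 to 0.23 with ERα17p. Of 10 fibroblast and endothelial markers, 0 passed 1.5-fold, with values from -0.34 to 0.14, -0.04 to 0.10 and -0.37 to 0.17. Of 8 luminal and ERBB2 amplicon markers, including ERBB2, EPCAM and KRT8, 0 passed 1.5-fold, with values from -0.31 to 0.09, -0.17 to 0.05 and -0.04 to 0.17. Whether the labelled line expresses these markers could not be read, since the values are distances from a baseline.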

How the data were processed

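Total RNA of SKBR3 cells under 3 conditions, 1 sample and 1 array each, was measured on an Affymetrix array. Groups were taken from the sample titles. The authors used RMA, per the submitters' processing notes, which subtracts background, applies quantile normalisation and combines a set's probes on a log scale. The deposited log2 values (base not stated, taken as 2) had array medians of -0.02, -0.00 and 0.00, and 7.28% of probe sets held mirror-image values around 0 (tolerance 1e-06, values over 0.001) in a pair of arrays, so each probe set was taken as centred on a median to which other arrays, not used here, contributed. Signal over background is therefore unknown, and precision is limited by having 3 arrays.

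Probe sets were named by the platform annotation: 41091 had 1 symbol, 1801 several, 11721 none and 62 were controls. Of the 41091, 41037 matched the GRCh38.p14 gene table by Entrez ID and 0 symbols changed. Differences were taken per probe set, and per gene as the median over probe sets. No test was possible with 1 array per group, and dim probe sets were not filtered. The size rule was 1.5-fold. Named genes were all members, up to 4 genes per list with the largest absolute difference in any comparison, and the 3 genes nearest each member, with exceptions marked. Members and lists were chosen with earlier results of these data known. Some of the lists' genes, among them CCL3, CSF2, BCL3, BIRC3, ZC3H12A and CD68, were not analysed here. Promoters came from RefSeq and were aligned with Biopython 1.88 (match 1, mismatch -1, gap opening -3, extension -1). The counting of calls was tested on simulated data. Alternatives were a 2-fold rule, arrays shifted to a median of 0, leaving out _s_at and _x_at probe sets, the baseline as reference, the mean over probe sets and, added after the data were seen, the difference of array medians.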

Additional observations from a re-analysis of the deposited data

How the results depend on the processing

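The baseline is a centre to which the treated arrays contribute, so values against it are in part fixed near 0 and it is no substitute control. With it in place of the array labelled vehicle, 0 of 11 member probe sets, 0 of 6 member genes and 0 of 83 genes of the pathway lists were lower with either treatment, in place of 5, 3 and 30 with estradiol and 5, 3 and 29 with ERα17p. CXCL3 with estradiol (0.12), CXCL1 with ERα17p (0.43) and CXCL8 with ERα17p (1.65) then changed sign. Without _s_at and _x_at probe sets, which removes CXCL8 altogether, 2 of 6 member probe sets were lower with estradiol and 2 with ERα17p against vehicle. Between the treatments 1 probe set, 1 of 5 member genes (CXCL1) and 2 of 67 list genes were then lower, in place of 3, 2 and 6. The shares of all probe sets and of all genes were not counted for this setting, so these counts have no background. With a 2-fold rule, 1 member gene (CXCL8) and 1 list gene were lower between the treatments. By probe set, 2 of 11 members were lower there by this rule, beside 17 of 41091 with 1 symbol. The share of all genes was not counted for it. CXCL2 passed 1.5-fold against vehicle with the mean over probe sets (-1.55 and -1.43) and not with the median. Shifting each array to a median of 0 moved none of 33 results, and the difference of array medians none of 27. The baseline could not replace an array in estradiol against ERα17p. No paired analysis was possible because each group had 1 array and no replicate numbers. No replicate could be left out.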

Other observations

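Genes outside the cluster also hold the letters GGAATTTCC in their promoter windows. Leaving out the 6 members, 82 such genes were measured. Of these, 11 (13.4%) were lower than the array labelled vehicle with estradiol and 12 (14.6%) with ERα17p, beside 2.99% and 2.12% of the 15378 measured genes with any promoter in the table. The lowest with estradiol were the chemokine gene CXCL10 (-2.83), NFKBIZ (-2.21), ICAM1, an adhesion molecule gene (-1.93), and MAP3K8 (-1.62), followed by CXCL11 (-1.59), REL (-1.55), NFKBIA, an NF-kB inhibitor gene (-1.33), and NFKB1 (-1.21). With ERα17p they had -2.23, -2.30, -1.85, -1.60, -0.87, -1.46, -1.04 and -1.08 in the same order. The 2 probe sets of NFKBIA disagreed, at -2.73 and 0.07 for estradiol against vehicle. The median of the 82 was -0.06 with estradiol and -0.03 with ERα17p, so that most genes with these letters differed little. Of 1298 genes with the full κB consensus, members left out, 59 (4.55%) were lower with estradiol and 54 (4.16%) with ERα17p. Between the treatments, 2 of the 82 (2.44%) were lower, beside 0.202% of genes with any promoter. The letters were picked after the members' sequences were seen, and no test was made of these shares.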
